A study of Phaseolus vulgaris with 36 samples.

Results

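The data compared here are the pod transcriptomes of 2 domesticated accessions of common bean (Phaseolus vulgaris), SXB 405 and ICA Bunsi, at stage R7, when the first pod has appeared. The samples were chosen by their labels: 3 libraries of SXB 405 and 3 of ICA Bunsi, 6 of the 36 in the series. Both accessions are labelled middle dehiscent, meaning that their mature pods open to an intermediate degree, and both were untreated, so the 2 groups differ in accession alone as far as the labels go. The other 30 libraries are the same accessions at R8 (pod filling) and R9 (mature pod), and at all 3 stages a domesticated indehiscent accession, MIDAS, and a wild dehiscent one, G12873, with 3 libraries in each of the 12 groups. The tissue is labelled only as pod; nothing is said of seeds, or of whether a group's libraries are from different plants. A p-value here reflects the spread between libraries, which may be technical.

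A bean pod is a single carpel whose valves are joined along a dorsal and a ventral suture. In the first days after flowering it lengthens while its seeds are still small, and the later filling stage is when the seeds take up most of the reserves. Dehiscence is the opening of the dry pod along the sutures, driven by fibres laid down in the sutures and the valve wall while the pod is still green. Accessions of a crop differ in transcript levels through variants in or near a gene, through the presence or absence of whole genes, and through the timing of development.

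The files give an estimated count for each of 36995 transcripts of 27433 genes, and counts were summed per gene. Genes are known here only by their identifiers. None of the 27433 identifiers matched the RefSeq table at hand, so no gene is given a name or a role, and no sequence is shown. An identifier such as Phvul.011G205000 gives the chromosome (11) and then a number that increases along it, while an L in place of the chromosome marks a sequence placed on none. Genes are therefore grouped by size and level of the difference, by recurrence at later stages, by place in the chromosome order and by transcript length.

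Total counts were 15202576, 13844763 and 10352914 in SXB 405 replicates 1, 2 and 3, and 7135906, 5390832 and 7345978 in those of ICA Bunsi. ICA Bunsi replicate 3 stood apart from the other 5 libraries. A set of 10 abundant genes whose levels go up and down together over the series took 72.9% of its counts, which left 1992859 counts for all other genes. The same set took 1.96% to 2.88% of the counts in the SXB 405 libraries and 6.41% and 7.03% in ICA Bunsi replicates 1 and 2. Pearson's r of log2 levels between libraries of a group was 0.983 to 0.988 in SXB 405 and 0.950 to 0.981 in ICA Bunsi. On the first principal component of the 2000 most variable genes, which held 42.4% of the variance over 36 libraries, SXB 405 at R7 lay between -88.7 and -80.5 and ICA Bunsi at R7 between -86.8 and -76.6. The ranges of the accessions overlapped there. On the second component they did not, with -3.14 to 0.746 in SXB 405 and 5.52 to 29.7 in ICA Bunsi, whose replicate 3 was the highest.

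Of 20966 genes with enough counts to be tested, 899 differed between SXB 405 and ICA Bunsi at R7. A gene was called when its adjusted p in edgeR's quasi-likelihood test, corrected over all tested genes, was under 0.05 and its difference was at least 2-fold, a log2 difference of 1. The called genes were 4.29% of those tested. They were 535 genes higher in SXB 405, 2.55% of those tested, and 364 lower in SXB 405, 1.74%. The median difference was 3.02-fold among the higher genes and 3.38-fold among the lower ones. Where the accession with less had under 3 counts per library on average, the fold can only be bounded, and with that floor in place of its level the ratio of mean levels had a median of 2.88 among the higher and 3.22 among the lower genes. With the floor 8 higher and 12 lower genes differed by a log2 value of 5 or more, and without it the fits gave 65 and 31 such genes, of which 43 and 15 had 0 counts in the accession with less. Levels are given as CPM, counts divided by library size, with library sizes scaled by TMM, a method that keeps a few very abundant genes from setting the level of all others. Of the higher genes 76 reached a mean of 100 CPM in SXB 405, while of the lower genes 15 reached it in ICA Bunsi. The libraries are of pod tissue in bulk, in which fewer cells of a type and less RNA per cell cannot be told apart. In the accession with less, the mean was under 1 CPM for 145 of the higher and 113 of the lower genes.

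**Figure D1:**
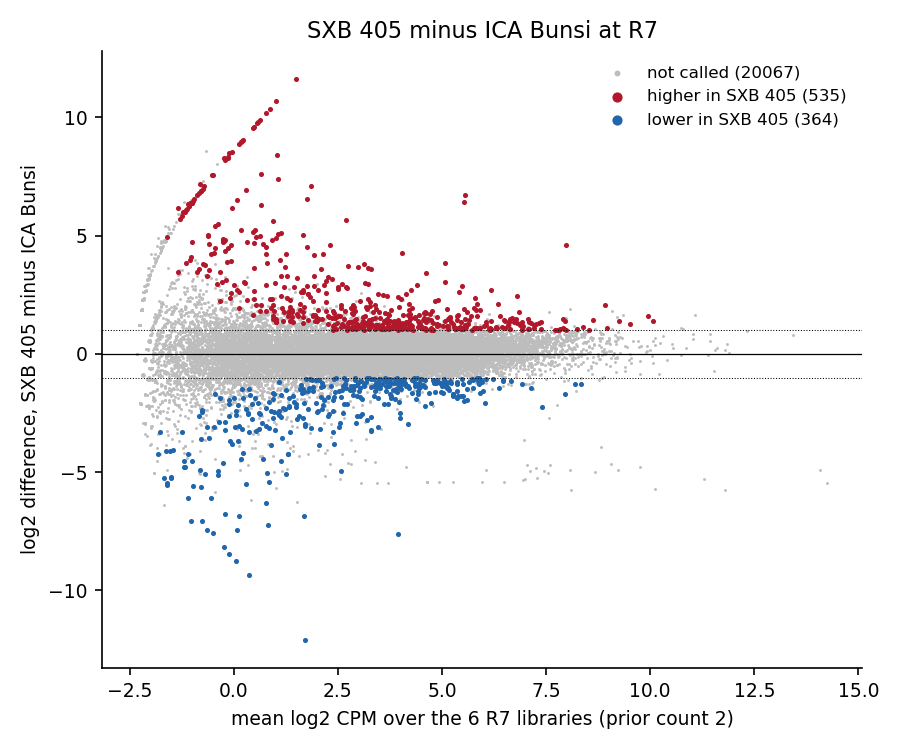
Log2 difference at R7, SXB 405 minus ICA Bunsi (vertical axis), against the mean log2 CPM over the 6 libraries (horizontal axis), with 1 point for each of 20966 genes. Called genes lie beyond the dotted lines at a 2-fold difference, 535 above and 364 below, and the grey points near -5 at high level include the 10 co-varying genes, none of which was called.

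The balance of higher and lower genes, 59.5% higher, depended on the method. DESeq2, on the same counts, called 512 genes higher and 583 lower, so that 46.8% were higher, and 808 of the 899 genes were called by both. With a trend of the difference on transcript length removed, which is described further on, 397 genes were higher and 401 lower, 49.7% higher. When transcripts took the place of genes, 310 were higher and 135 lower. Without ICA Bunsi replicate 3, 231 of the 535 higher and 185 of the 364 lower genes were still called. All kept their sign, which is largely built in, since they were chosen for their size in these same libraries. Without ICA Bunsi replicate 2 the calls numbered 235 higher and 172 lower. They numbered 319 and 200 without SXB 405 replicate 1, 386 and 199 without replicate 2 and 340 and 180 without replicate 3.

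A core of 306 genes, 1.46% of those tested, was called in all 6 libraries and again with each of the 6 left out in turn. It held 183 genes higher and 123 lower in SXB 405, 34.0% of all calls. No gene was called in the opposite direction when a library was left out, which the choice by size in the same libraries makes likely beforehand. The libraries of the 2 accessions did not overlap for 534 of the 535 higher and 355 of the 364 lower genes. Over all tested genes the SXB 405 libraries lay all above those of ICA Bunsi for 27.2%, and all below for 21.8%. The 10 co-varying genes had log2 differences of -5.77 to -4.64 and of -1.80 to -0.77 without ICA Bunsi replicate 3, and none passed the test either way.

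The largest differences among genes with at least 1 CPM in both accessions ran from 30.6-fold to 196-fold. Phvul.004G158000 had 761, 444 and 446 CPM in the SXB 405 libraries and 2.79, 1.58 and 12.7 CPM in those of ICA Bunsi. The lowest SXB 405 library lay far above the highest of ICA Bunsi, which was replicate 3. The log2 difference was 6.71 ± 0.79 (SE), 105-fold (adjusted p = 1.09e-06), and 7.96 without ICA Bunsi replicate 3. Phvul.011G205000 had 666, 299 and 398 CPM in SXB 405 and 5.65, 6.55 and 2.97 CPM in ICA Bunsi. Its groups were as far apart, with a log2 difference of 6.43 ± 0.59, 86.1-fold (adjusted p = 2.46e-08).

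In the other direction, Phvul.011G204100 had 1.14, 0.626 and 1.36 CPM in SXB 405 and 134, 244 and 228 CPM in ICA Bunsi, without overlap. The log2 difference was -7.61 ± 0.67 (adjusted p = 1.40e-08). It lies on chromosome 11 close in the numbering to Phvul.011G205000, which differed the other way. Phvul.002G317500 had 0.871, 0.771 and 1.39 CPM in SXB 405 and 29.5, 36 and 26.2 CPM in ICA Bunsi. The 3 libraries of each accession were close together here, and the standard error was the smallest of the 4 genes (log2 difference -4.93 ± 0.32, adjusted p = 6.21e-12). All 4 were taken from core genes without overlap, so both traits follow from the choice.

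Among the called genes with the highest levels, which were not chosen from the core, the differences were smaller. None of the 4 named here belonged to the core. Phvul.011G204532 had 2375, 1537 and 1410 CPM in SXB 405 and 735, 732 and 553 CPM in ICA Bunsi (log2 difference 1.398 ± 0.39, adjusted p = 0.0254). The files give it a single transcript of 156 bases. Phvul.004G064800 had 2046, 1392 and 1733 CPM in SXB 405 and 680, 560 and 476 CPM in ICA Bunsi (1.59 ± 0.46, adjusted p = 0.0318). For both, every SXB 405 library lay above every ICA Bunsi library, and the call was lost when the length trend was removed (adjusted p = 0.157 for Phvul.011G204532 and 0.0828 for Phvul.004G064800).

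The most abundant genes on the lower side were Phvul.002G268200 and Phvul.008G008200. Phvul.002G268200 averaged 211 ± 14.4 CPM in SXB 405 and 508 ± 71.0 CPM in ICA Bunsi (SD, n = 3 each). Its libraries were 216, 222 and 194 CPM against 439, 504 and 581 CPM, without overlap (log2 difference -1.27 ± 0.35, adjusted p = 0.0271). Phvul.008G008200 had 173, 157 and 101 CPM in SXB 405 and 272, 655 and 480 CPM in ICA Bunsi, whose libraries spread more widely (-1.70 ± 0.38, adjusted p = 0.00514). Each of these 4 calls was lost without some single libraries and kept without others. With 1 left out, the log2 difference was 1.14 to 1.54 for Phvul.011G204532, 1.46 to 1.74 for Phvul.004G064800, -1.36 to -1.15 for Phvul.002G268200 and -1.97 to -1.38 for Phvul.008G008200, so the calls were lost on the adjusted p while the fold stayed over 2. Without ICA Bunsi replicate 2 all 4 were lost (adjusted p = 0.0866, 0.125, 0.0860 and 0.0625 in the same order), and without replicate 3 the first 3 (0.144, 0.160 and 0.135). Without ICA Bunsi replicate 1 the first pair were lost (adjusted p = 0.0539 and 0.0545). On the other side, Phvul.011G204532 was lost without SXB 405 replicate 1 (adjusted p = 0.151), Phvul.004G064800 without replicate 1 or 3 (0.119 and 0.0786), Phvul.002G268200 without any one of the 3 (0.0920, 0.0808 and 0.110) and Phvul.008G008200 without replicate 3 (0.0514).

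A set of 50 genes was counted in 1 accession alone at R7. For 46 of them each SXB 405 library had at least 10 counts and each ICA Bunsi library had 0, and for 4 it was the reverse. The SXB 405 libraries were the deeper ones, so a limit in counts is easier to meet there: with equal limits in CPM, at least 4 in each library of one accession and under 0.32 in each of the other, 26 genes were found on the SXB 405 side and 8 on the ICA Bunsi side. The mean level of the 46 genes in SXB 405 ran from 0.643 to 39.7 CPM with a median of 2.16. A count of 0 allows up to 3 counts, or between 0.253 and 0.957 CPM in an ICA Bunsi library and between 0.131 and 0.190 CPM in an SXB 405 library, by counting error alone. The fits called 39 of the 46 genes and all 4 of the others.

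The highest of the 46 was Phvul.005G185900, with 40.2, 40.5 and 38.3 CPM in SXB 405 and 0 counts in ICA Bunsi. It was at least 76.8-fold higher in SXB 405, taking 3 counts in each ICA Bunsi library as the floor (adjusted p = 4.12e-11). Phvul.004G158300 had 27.4, 18.5 and 17.1 CPM in SXB 405 and 0 counts in ICA Bunsi, at least 40.6-fold higher (adjusted p = 1.61e-06). Its number on chromosome 4 is close to that of Phvul.004G158000, which had one of the largest folds in the same direction. On the other side, Phvul.005G099500 had 0 counts in SXB 405 and 42.0, 57.3 and 64.8 CPM in ICA Bunsi, and was at least 360-fold lower in SXB 405 (adjusted p = 7.25e-05). Phvul.001G138100 had 0 counts in SXB 405 and 8.42, 8.07 and 7.95 CPM in ICA Bunsi, at least 53.5-fold lower (adjusted p = 2.73e-07).

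**Figure D2:**
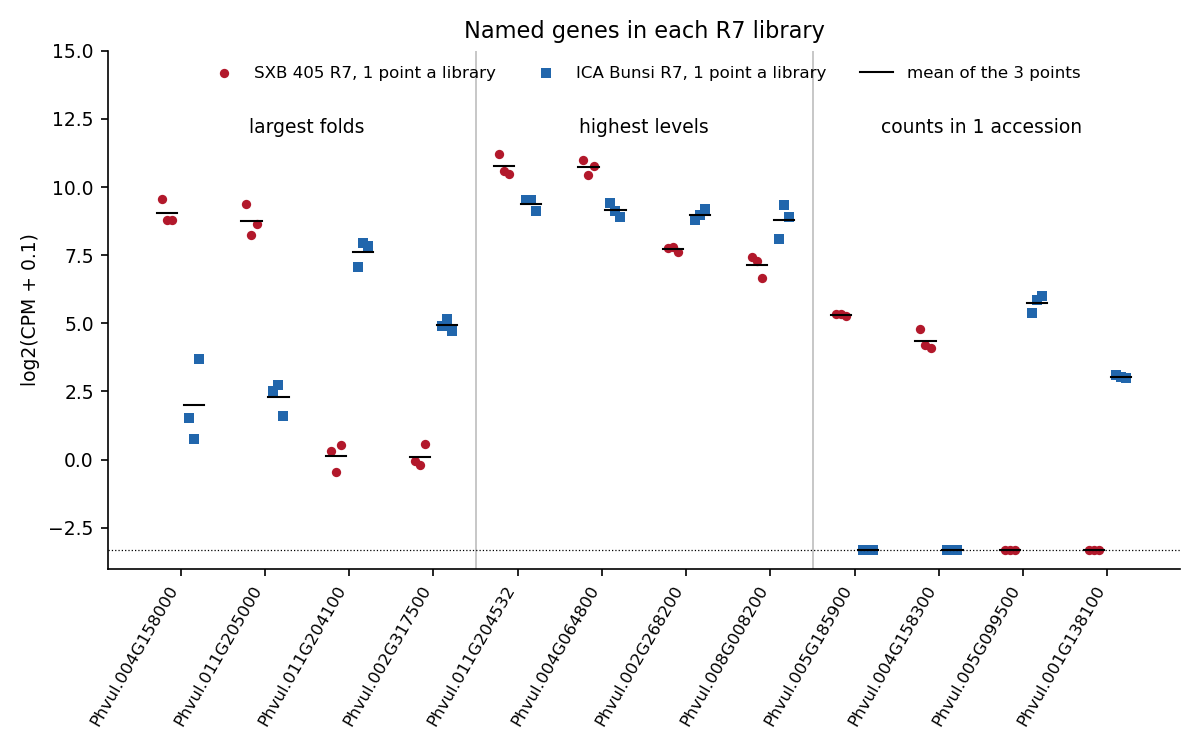
Level of 12 named genes in each R7 library, as log2(CPM + 0.1), with SXB 405 as circles on the left of each gene and ICA Bunsi as squares on the right; bars are means of 3 libraries and the dotted line is a count of 0. The accessions overlap in none of the 12 genes, which the choice fixed beforehand except in the 4 abundant ones, where they are closest together.

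Most of the genes counted in 1 accession at R7 had few or no counts in the other one later. Of the 46 genes, 36 had at least 10 counts over the SXB 405 libraries at R8 and 35 at R9. Over the ICA Bunsi libraries 10 reached that limit at R8 and 5 at R9. The limit is a raw count and takes no account of depth. ICA Bunsi R9 replicates 1 and 3 held 1742591 and 908225 counts outside the co-varying set. A gene of low level can therefore miss the limit, or have no count, through depth. For 19 of the 46 no ICA Bunsi library of any stage held a count, and for 2 of the 4 genes of the other side no SXB 405 library did. At R7, 27 of the 46 had at least 10 counts in MIDAS and 27 in G12873. Replicates 1 and 2 of G12873 at R7 were also shallow, with 275179 and 687090 counts outside the co-varying set. A transcript missing from an accession's libraries and one that its alleles keep from being assigned to the index sequence cannot be told apart in these files.

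The R7 differences were set beside those at R8 and R9, which come from other libraries of the same accessions. Of the 535 genes higher at R7, 410 (76.6%) were higher in SXB 405 at R8 and 419 (78.3%) at R9, whether called or not. Over all tested genes 48.6% were higher at R8 and 52.2% at R9. Of the 364 genes lower at R7, 310 (85.2%) were lower at R8 and 283 (77.7%) at R9, against 50.9% and 46.6% of all tested genes. The differences were smaller later: the higher genes had a median log2 difference of 1.60 at R7, 0.61 at R8 and 0.63 at R9, and the lower genes one of -1.76 at R7, -0.89 at R8 and -0.91 at R9. The genes were chosen for their size at R7, so a smaller median elsewhere follows in part from the choice.

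Calls at R8 numbered 1569 (7.48% of tested genes), with 578 higher (2.76%) and 991 lower (4.73%), and at R9 1589 (7.58%), with 663 higher (3.16%) and 926 lower (4.42%). With 1 library left out they ranged from 564 (without SXB 405 R8 replicate 2) to 2644 (without SXB 405 R8 replicate 1) at R8. At R9 the range was 704 (without ICA Bunsi R9 replicate 1) to 2683 (without ICA Bunsi R9 replicate 2), so the shares that follow hold for the full set of libraries. Of the 535 genes higher at R7, 144 (26.9%) were called higher at R8 and 135 (25.2%) at R9. These make up 24.9% of the R8 list and 20.4% of the R9 list. Of the 364 genes lower at R7, 132 (36.3%) were called lower at R8 and 117 (32.1%) at R9, or 13.3% and 12.6% of the later lists. Calls in the opposite direction were few. Of the higher genes 7 were called lower at R8 and 1 at R9, and of the lower genes 1 was called higher at R8 and 3 at R9. In the core, 168 of 183 higher and 116 of 123 lower genes kept their sign at R8, and 159 and 109 at R9.

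**Figure D3:**
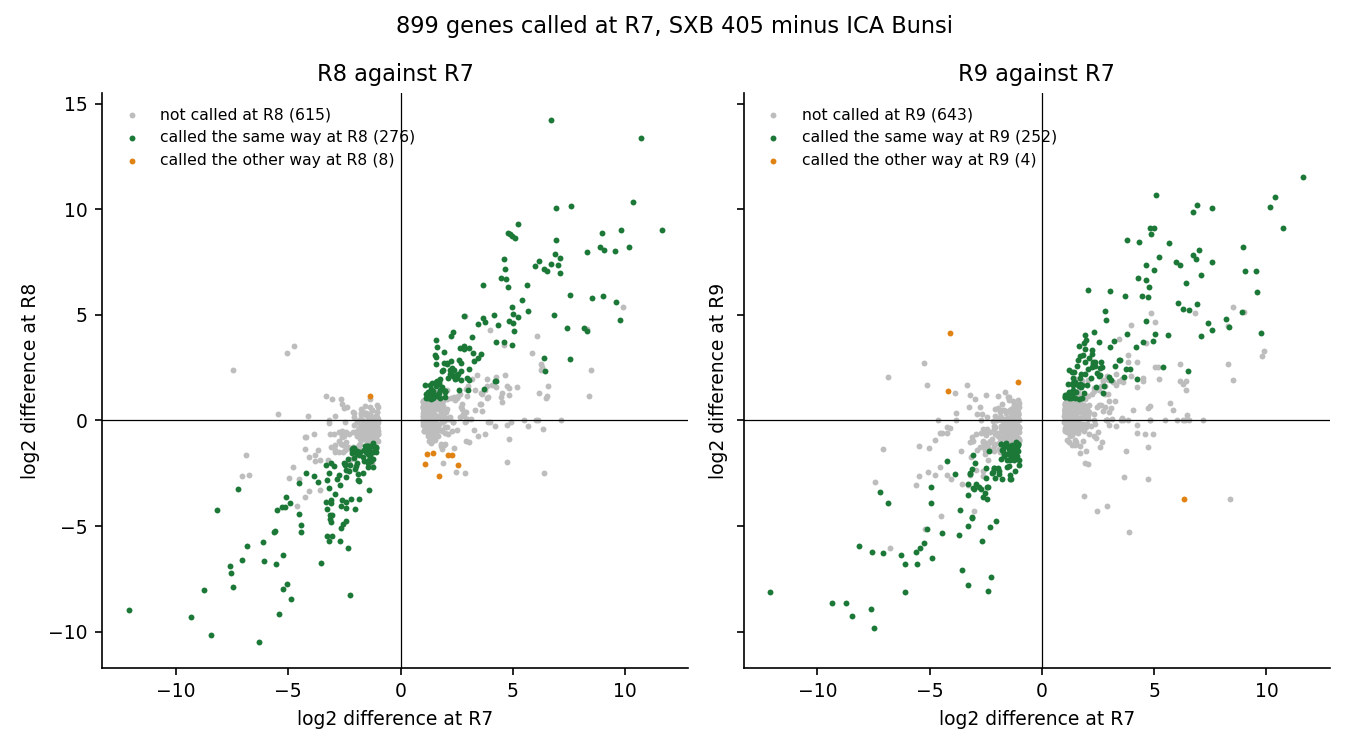
Log2 difference, SXB 405 minus ICA Bunsi, of the 899 genes called at R7 (horizontal axis) against the same difference at R8 (left) and R9 (right). Green points were called the same way at the later stage, 276 at R8 and 252 at R9, and orange points the other way, 8 at R8 and 4 at R9.

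In all, 174 genes were called in the same direction at R7, R8 and R9, 98 higher and 76 lower in SXB 405. Phvul.L001601, on a sequence placed on no chromosome, had 16.3, 16.9 and 16.3 CPM in SXB 405 at R7 and 0 counts in ICA Bunsi. It averaged 16.5 ± 0.34 CPM in SXB 405 at R7, 16.2 ± 5.94 at R8 and 19.0 ± 5.22 at R9 (SD, n = 3 each), with 0 counts in all 9 ICA Bunsi libraries. Phvul.004G158300, described above, was also among them. Its mean in SXB 405 was 21.0 ± 5.61 CPM at R7, 435 ± 255 at R8 and 590 ± 302 at R9, while in ICA Bunsi it was 0, 0.0272 ± 0.047 and 1.41 ± 0.72 CPM.

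Of the lower genes in this group, Phvul.001G138100 had 0 counts in all 9 SXB 405 libraries and averaged 8.14 ± 0.24 CPM in ICA Bunsi at R7, 7.96 ± 1.91 at R8 and 3.67 ± 3.80 at R9. Phvul.003G000226 also had 0 counts in all 9, with 5.88, 2.44 and 4.68 CPM in ICA Bunsi at R7 and means of 14.4 ± 0.41 CPM at R8 and 6.63 ± 5.96 CPM at R9. Its R7 call (adjusted p = 0.0251) was lost with each of the 6 R7 libraries left out in turn, with adjusted p up to 0.0943, and in DESeq2 (adjusted p = 0.0618). Both genes had next to no counts in ICA Bunsi R9 replicate 3, which had 908225 counts outside the co-varying set.

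A further 180 genes, 83 higher and 97 lower, were called in the R7 direction at 1 later stage, and 12 were called only in the opposite direction at R8 or R9. The remaining 533 genes called at R7, 346 higher and 187 lower, were called at neither later stage. That alone does not show that their difference changed. The change was tested directly, with an F-test on whether the SXB 405 minus ICA Bunsi difference was the same at all 3 stages. It passed for 502 genes (2.39% of those tested), and for 113 of the 899 genes called at R7, 63 higher and 50 lower. Since both tests use the R7 libraries, their overlap is a description. Of the 113 genes, 87 had a smaller difference at both later stages than at R7, 88 had the opposite sign at R8 or R9, and 12 were called in the opposite direction. Smaller or opposite later differences are largely built in, since the genes were chosen by their size at R7 and by the F-test. The count of 502 genes was sensitive to single libraries. It was 133 without ICA Bunsi R7 replicate 2 and 178 without R7 replicate 3, and it was 1601 without ICA Bunsi R9 replicate 2 and 1191 without SXB 405 R8 replicate 1.

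Phvul.002G153500 changed direction between the first 2 stages. At R7 it had 23.9, 18.3 and 18.7 CPM in SXB 405 and 10.2, 11.5 and 6.38 CPM in ICA Bunsi (log2 difference 1.08 ± 0.28, adjusted p = 0.0185). At R8 it averaged 2.88 ± 1.20 CPM in SXB 405 and 11.8 ± 2.17 CPM in ICA Bunsi (-2.05 ± 0.30, adjusted p = 2.90e-05), and at R9 2.90 ± 0.67 and 3.31 ± 1.26 CPM. SXB 405 was above ICA Bunsi at R7 and below it at R8, without overlap at either stage, and the F-test gave an adjusted p of 0.000211. The R7 call was lost without ICA Bunsi replicate 3 (log2 difference 0.91, adjusted p = 0.142) and without SXB 405 replicate 1 (0.95, adjusted p = 0.0996). It was also lost with the length trend removed (0.92, adjusted p = 0.0605).

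The difference of Phvul.004G158000 grew. Its mean in SXB 405 was 550 ± 183 CPM at R7, 14332 ± 5714 at R8 and 15496 ± 4863 at R9, and in ICA Bunsi 5.70 ± 6.12, 0.729 ± 0.46 and 17.2 ± 8.65 CPM. The log2 difference was 6.71 at R7, 14.2 at R8 and 9.87 at R9 (adjusted p of the change 0.00027). Phvul.011G205000 went the other way, with a log2 difference of 6.43 at R7, 2.34 at R8 and 1.46 at R9 (adjusted p of the change 0.00138), the last not called (adjusted p = 0.159). Its mean in SXB 405 was 454 ± 189 CPM at R7, 28.4 ± 14.0 at R8 and 4.499 ± 0.60 at R9, against 5.06 ± 1.87, 5.58 ± 2.30 and 1.16 ± 1.04 CPM in ICA Bunsi.

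The lower genes Phvul.006G151300 and Phvul.006G096400 had means under 1 CPM in SXB 405 at R7 and above it at R8 and R9. Phvul.006G151300 had 0.094, 0.352 and 0.195 CPM in SXB 405 and 18.6, 30.2 and 30.8 CPM in ICA Bunsi (log2 difference -6.87 ± 0.76, adjusted p = 4.55e-07). At R8 it averaged 10.9 ± 3.36 CPM in SXB 405 and 34.2 ± 35.9 in ICA Bunsi, and at R9 7.63 ± 2.25 and 2.21 ± 1.29 CPM (adjusted p of the change 9.01e-05). Phvul.006G096400 had 0.0871, 0.318 and 0.126 CPM in SXB 405 and 3.63, 3.16 and 3.83 CPM in ICA Bunsi (-4.20 ± 0.56, adjusted p = 6.73e-06). By R9 it was higher in SXB 405, with 9.73 ± 0.41 CPM against 2.78 ± 2.75 CPM in ICA Bunsi (log2 difference 1.41 ± 0.46, adjusted p = 0.0465; adjusted p of the change 0.000184).

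Called genes were not spread evenly over the chromosomes. Chromosome 4 had the highest share, with 88 of 1302 tested genes called (6.76%), followed by chromosome 11 with 102 of 1565 (6.52%) and chromosome 5 with 77 of 1319 (5.84%), against 4.29% of all tested genes. Among the 11 chromosomes the lowest shares were 3.07% on chromosome 9 and 3.15% on chromosome 7, while 1.32% of the 304 tested genes placed on no chromosome were called. Core genes were 3.32% of the tested genes on chromosome 11 (52 genes), 2.61% on chromosome 4 (34) and 2.12% on chromosome 5 (28), against 1.46% of all tested genes. They were 1.44% of the larger chromosome 2 (38 genes), 0.791% of chromosome 9 (17) and 0.532% of chromosome 7 (11). Neighbouring genes were counted in 811 windows of 50 tested genes in chromosome order. The median window held 2 called genes and 115 windows held none. Of the 16 windows with 8 or more, 7 were on chromosome 4 and 6 on chromosome 11, with 1 each on chromosomes 3, 8 and 9. Windows overlap, so neighbouring ones share genes, and the shares are given without a test.

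The highest window ran from Phvul.011G196700 to Phvul.011G202500 and held 14 called genes of 50, 12 higher and 2 lower in SXB 405, of which 10 were in the core. The 12 higher genes averaged 1.03 to 71.0 CPM in SXB 405 and 0 to 3.71 CPM in ICA Bunsi, and 3 of them had 0 counts in ICA Bunsi. At the later stages 11 of the 14 kept their sign at R8 and 9 at R9. Phvul.011G201800 had 6.01, 4.58 and 7.21 CPM in SXB 405 and 0 counts in ICA Bunsi at R7, at least 11.5-fold higher (adjusted p = 1.49e-06). It was called at R8 and R9 as well. Phvul.011G199900 had 3.83, 5.17 and 4.805 CPM in SXB 405 and 0 counts in ICA Bunsi at R7, at least 8.91-fold higher (adjusted p = 0.000107). In SXB 405 it averaged 0.692 ± 0.31 CPM at R8 and 0.532 ± 0.30 CPM at R9.

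The 2 lower genes of the window were Phvul.011G200800 and Phvul.011G200900, next to each other in the numbering. Phvul.011G200800 had 0.415, 0.398 and 0.431 CPM in SXB 405 and 2.53, 1.66 and 2.53 CPM in ICA Bunsi (log2 difference -2.35 ± 0.45, adjusted p = 0.00139). Phvul.011G200900 had 8.39, 10.03 and 10.13 CPM in SXB 405 and 25.1, 25.4 and 29.3 CPM in ICA Bunsi (-1.48 ± 0.26, adjusted p = 0.000421). Neither overlapped between accessions. In windows of 100 genes the highest started at the same gene and held 22 called genes. Near-identical neighbouring genes share reads in such tables, and the counts of genes in clusters of copies are uncertain to that extent.

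**Figure D4:**
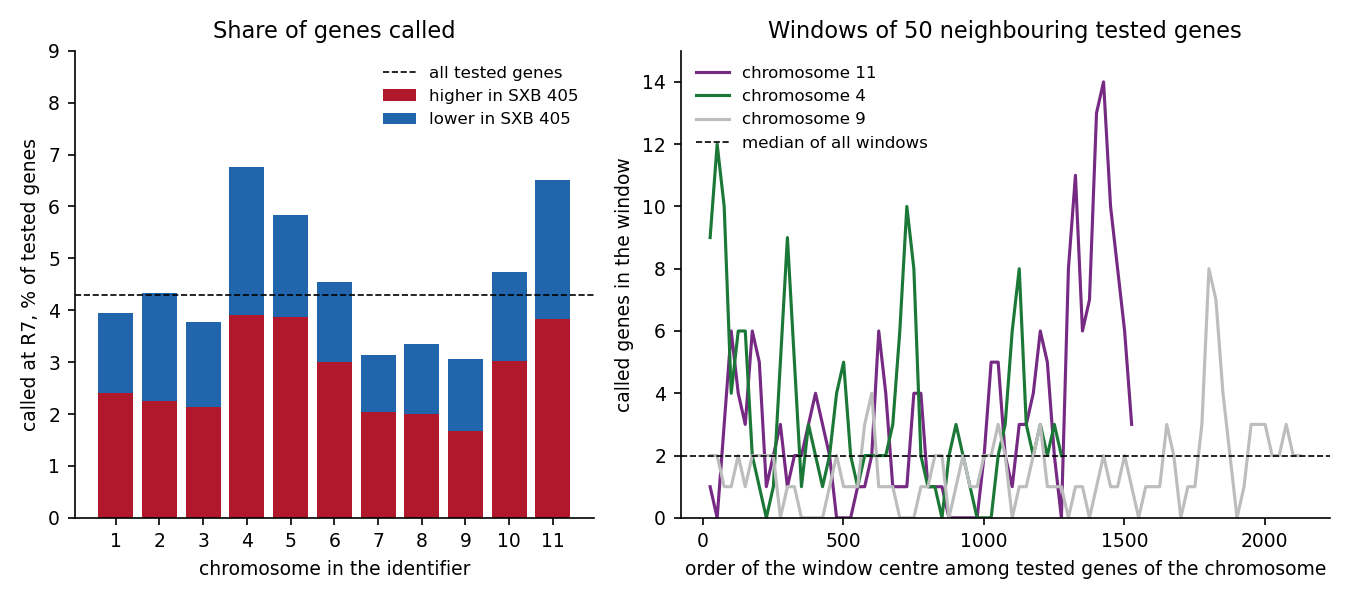
Left, genes called at R7 as a share of the tested genes of each chromosome, higher in SXB 405 in red and lower in blue, with the 4.29% of all genes as a dashed line. Right, called genes in windows of 50 neighbouring tested genes along chromosomes 11, 4 and 9, with the median of 2 as a dashed line and the highest window of 14 near one end of chromosome 11.

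The difference between the accessions went with transcript length at R7. The tested genes were split into 4 equal groups by length. In the shortest group, with a median length of 830 bases, 236 were higher and 73 lower in SXB 405, and the median log2 difference of all genes in the group was 0.27. The next group had 177 higher and 75 lower genes (median log2 difference 0.14), and the one after it 82 higher and 82 lower (-0.01). In the longest group, with a median length of 2842.5 bases, 40 were higher and 134 lower, and the median was -0.17. Over all tested genes the median log2 difference was 0.03. The slope held without ICA Bunsi replicate 3, with medians of 0.23 in the shortest and -0.13 in the longest group, and with the files' effective lengths as an offset, with 0.27 and -0.17.

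The pattern was also read library by library. Relative to the mean of the 6 libraries, the median level of the shortest group minus that of the longest was 0.31, 0.16 and 0.17 on the log2 scale in SXB 405 replicates 1, 2 and 3, and -0.06, -0.19 and -0.41 in those of ICA Bunsi. The groups did not overlap, and the 2 most distant libraries were SXB 405 replicate 1 and ICA Bunsi replicate 3. Deviations from the mean of the same 6 libraries are tied together, so these values cannot show a trend in each library by itself. At R8 the 4 groups had medians of 0.18, 0.06, -0.05 and -0.12 from shortest to longest, and at R9 0.00, 0.03, 0.02 and 0.13. The SXB 405 libraries were also the deeper ones, with 14904905, 13507080 and 10055086 counts outside the co-varying set, against 6678825, 5011959 and 1992859 in ICA Bunsi, and the part of depth in the pattern was not tested.

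**Figure D5:**
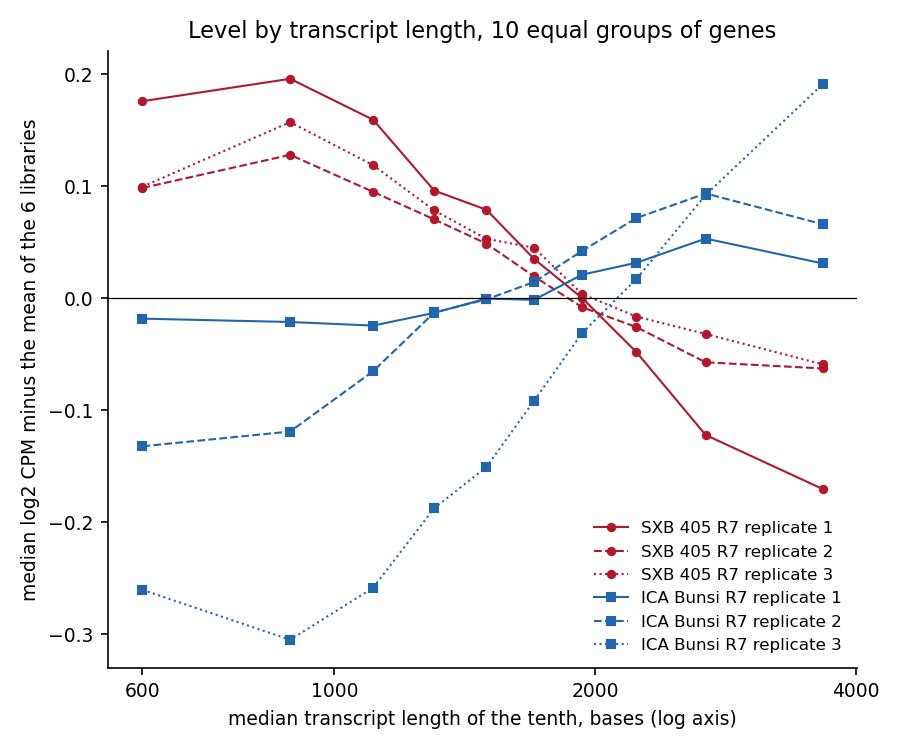
Median log2 CPM of each R7 library minus the mean of the 6 libraries (vertical axis) for 10 equal groups of tested genes ordered by transcript length (horizontal axis, log scale). SXB 405 libraries lie above those of ICA Bunsi for short transcripts and below them for the longest ones.

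A smooth trend on length was subtracted within each library, an alternative chosen after the pattern was seen. Of the 535 higher genes 359 were still called, and of the 364 lower genes 308. None of the 899 changed sign, which is largely built in, since the trend is small beside the 2-fold limit of a call. The 4 groups then had 126, 119, 81 and 71 higher genes and 130, 107, 77 and 87 lower genes from shortest to longest. Of the 306 core genes 299 were still called. The 174 genes called at all 3 stages comprised 43 higher and 27 lower genes in the shortest group and 13 and 19 in the longest, while the genes called at R7 alone comprised 160 and 36 in the shortest and 13 and 76 in the longest. The core leaned the same way before that step, with 79 higher and 31 lower genes in the shortest group and 15 and 42 in the longest.

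The share of genes called also went with the form of the identifier and the number of transcripts. Genes whose identifiers do not end in 00 were called in 6.22% of 1479 cases, and those ending in 00 in 4.14% of 19487. Genes with a single transcript in the files were called more often, in 4.55% of 16035 cases, than genes with several, in 3.43% of 4931. Their median lengths also differed, being 1332 and 1616 bases in the first pair and 1533 and 1800 bases in the second.

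Use of alternative transcripts was compared for 4279 genes with more than 1 transcript, with a test of whether the accession difference was equal for all transcripts of a gene (edgeR's diffSpliceDGE). It called 88 genes (2.06%), of which 7 were also called by their summed counts. On simulated counts whose transcripts varied as much as those of these files, too many of the calls made were false, so the 88 genes are given as values only. In 71 of them the share of the transcript concerned differed by over 50 points between libraries of at least 1 of the 12 groups of 3. The direction of the R7 difference recurred in 29 genes at R8 and in 59 at R9, and in 20 at both.

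Among the called genes with at least 10 counts in each R7 library, the widest differences in estimated share were near-complete at R7. In Phvul.011G187500 the first transcript took 100% of the gene's estimated counts in all 3 SXB 405 libraries and 0.478%, 0% and 2% in ICA Bunsi. At R8 this was absent, with 100%, 78.3% and 99.8% in SXB 405 and 79.4%, 100% and 78.8% in ICA Bunsi, and at R9 the mean share was 74.2 points higher in SXB 405. In Phvul.010G094200 it took 99.9%, 97.3% and 100% in SXB 405 and 1.34%, 1.08% and 1.23% in ICA Bunsi, yet the mean difference in share was -36.7 points at R8 and 0.775 points at R9. In Phvul.009G009200 and Phvul.003G163100 the transcript that took 100% in each ICA Bunsi library took under 0.01% in each SXB 405 library. The mean differences pointed the other way at R8, with 40.1 points for Phvul.009G009200 and 66.7 points for Phvul.003G163100, and the R7 way at R9, with -39.2 and -33.3 points. The shares of these 4 genes were unstable within groups. They differed by over 50 points between libraries of a group in 5, 7, 6 and 4 of the 12 groups, in the order named. In 8 genes the share differed by more than 25 points in the R7 direction at both later stages. One of them, Phvul.002G128700, is named after its values were seen: its transcript numbered 3 took 98.9%, 99.1% and 100% in SXB 405 and 52.7%, 24.1% and 12.06% in ICA Bunsi at R7, with mean differences of 37.0 points at R8 and 79.8 points at R9.

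The other accessions show on which side of the pair each gene stood at R7. For a called gene, MIDAS and G12873 were each assigned to whichever of SXB 405 and ICA Bunsi had the nearer mean log2 level. MIDAS was nearer to SXB 405 for 345 of the 535 higher genes (64.5%) and 168 of the 364 lower genes (46.2%). G12873 was nearer to SXB 405 for 150 of the higher (28.0%) and 179 of the lower genes (49.2%). Replicates 1 and 2 of G12873 are shallow, with 275179 and 687090 counts outside the co-varying set. Replicate 3 alone was nearer to SXB 405 for 246 of the higher (46.0%) and 101 of the lower genes (27.7%). Within the core, MIDAS was nearer to SXB 405 for 99 of the 183 higher (54.1%) and 55 of the 123 lower genes (44.7%). For G12873 replicate 3 the core shares were 51.9% and 36.6%. Phvul.004G158000 was high in G12873 as in SXB 405, and low in MIDAS as in ICA Bunsi, at 1257, 459 and 1527 CPM in the G12873 libraries and 18.2, 23.8 and 11.9 CPM in those of MIDAS. Phvul.002G317500 was lowest in SXB 405 of the 4 accessions, with no library of another accession under 17.9 CPM at R7.

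Genes that changed between R7 and R8 in the other 2 accessions were read at R7 in the 2 accessions compared here. These genes were found in libraries that the R7 comparison does not use. The 242 genes that were at least 2-fold higher at R8 than at R7 in both MIDAS and G12873 had a median log2 difference of 0.24 between SXB 405 and ICA Bunsi at R7, with 21 called higher (8.68%) and 6 lower (2.48%). The 484 genes that were lower at R8 in both had a median of 0.16, with 32 called higher (6.61%) and 9 lower (1.86%). Over all tested genes the median was 0.03, with 2.55% called higher and 1.74% lower. The picture differed between the 2 accessions that chose the genes. For MIDAS alone, 1573 genes that rose and 1949 that fell had medians of 0.12 and 0.08. For G12873 alone, whose R7 libraries include the 2 shallow ones, 2488 genes that rose had a median of 0.16 and 2682 that fell one of -0.12.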

How the data were processed

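Per the labels' protocols, pod RNA was extracted with a TRIzol-type reagent, made into TruSeq libraries and sequenced in single reads of 75 bases. The deposited tables hold a length, an effective length, an estimated count and a TPM value for each of 36995 transcripts, the columns of a kallisto table. The submitters' processing notes name kallisto, edgeR and limma without versions. The authors deposited the estimated counts as kallisto gives them, not normalized. The deposited TPM values are scaled for length and library size. In the results given here they served only as weights for a gene's mean transcript length and mean effective length. Build, annotation, index, trimming and use of strand: not given in the sources used here. Sense and antisense genes at one place can therefore not be told apart.

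Estimated counts were summed per gene (identifier without its last number) and rounded. edgeR 4.0.16 in R 4.3.3 was fitted over all 36 samples and 12 groups after TMM scaling, by robust quasi-likelihood; filterByExpr was set to a minimum count of 10 and a minimum total of 15. It kept 20966 genes and removed 6467. Standard errors come from the F statistic of a contrast. Log2 CPM used a prior count of 2. The floors cover counting error only, while the standard errors and SDs include the spread between libraries. The fitted fold of a gene with 0 counts in a group depends on the prior count, so a bound is printed.

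The replicate numbers are not stated to pair the samples, and they were not used as pairs in the main fit. The deviations of same-numbered libraries correlated by -0.084, -0.036 and -0.044 at R7. They correlated by 0.054, -0.096 and 0.160 at R8 and by 0.011, -0.153 and -0.022 at R9. Deviations from means of 3 libraries tie these values together, so a shared batch cannot be decided from them. No 2 libraries of either R7 group agreed within sampling noise. Alternatives were RLE size factors, limma-voom with limma 3.58.1, DESeq2 1.42.0, other filters, samples and features, a replicate block and each library left out. The removal of a length trend and the equal CPM limits were added after seeing the data. The fits were tested on simulated data. The transcript test, which assumes 1 spread for all transcripts of a gene, made excess false calls where the spreads differed.

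The comparison, gene lists and rules were chosen with earlier results of these data known. At most 2 higher and 2 lower identifiers were named for each list: largest fold in the core with 1 CPM in both groups, highest level, called at all 3 stages, change with stage, counts in 1 accession, transcript use, and highest window. Lists of named pathways were planned but not used, since 0 of 27433 identifiers matched the RefSeq table of 34165 genes (assembly P. vulgaris v2.0). Tables were read in Python 3.11.15 (pandas 2.3.3) and plotted with matplotlib 3.10.9.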

Additional observations from a re-analysis of the deposited data

Results flagged for a closer look

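The difference between SXB 405 and ICA Bunsi was not the same at all 3 stages for 502 genes, by an F-test over R7, R8 and R9. Among the named genes this held for Phvul.002G153500 (adjusted p = 0.000211), whose difference was 1.08 on the log2 scale at R7 and -2.05 at R8. It held for Phvul.004G158000 (adjusted p = 0.00027), which differed most at R8, and for Phvul.011G205000 (adjusted p = 0.00138), which differed most at R7. Of the genes lower in SXB 405 at R7 it held for Phvul.006G151300 (adjusted p = 9.01e-05) and Phvul.006G096400 (adjusted p = 0.000184), which were not lower in SXB 405 at R9. Phvul.002G317500 was lower in SXB 405 at all 3 stages by a shrinking margin, with log2 differences of -4.93, -3.90 and -3.14 (adjusted p = 0.0453).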

How the results depend on the processing

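ICA Bunsi R7 replicate 3, with 1992859 counts outside the co-varying set, limits what can be seen for genes of low level. The number of calls depended on the libraries used, and the cause of the changes was not tested beyond the settings named. No gene called at R7 was called in the opposite direction with a library left out, which its size makes likely beforehand. Leaving out 1 library at a time gave 407 to 897 calls at R7 (899 in all libraries), 564 to 2644 at R8 (1569), 704 to 2683 at R9 (1589), 134 to 180 at all 3 stages (174), 133 to 1601 for the change with stage (502) and 40 to 93 for transcript use (88). A group left with fewer libraries shares the spread of the others. A fit on only the 6 samples compared gave 1725 calls at R7, 501 at R8, 746 at R9, 94 at all 3 stages and 388 for transcript use. Transcripts in place of genes gave 445, 550 and 789 calls at R7, R8 and R9, and 99 at all 3. With 8 libraries left out, those where the co-varying genes held over 50% of counts, which leaves single libraries in some groups, there were 293 calls at R9, 111 at all 3 stages, 134 for the change with stage and 149 for transcript use. The change with stage was called for 1599 genes by DESeq2, 1788 in the 18 samples of both accessions and 845 with the length trend removed. Simes' method called 24 genes for transcript use. Genes counted in 1 accession numbered 78 with a minimum of 5 counts and 29 with 20, against 50 with 10. The replicate block changed no count by over 1.5 times, with 859 calls at R7. Other alternatives left each count within 1.5 times. No gene named for its R7 call changed sign there, which its size also makes likely beforehand. DESeq2 at R7 called 512 genes higher and 583 lower.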
